A study of Homo sapiens with 24 samples.

Results

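The promoter mark H3K4me3 was compared between control and ZNF436-knockdown cardiomyocytes in 6 libraries, 3 per group, of the 24 libraries in the series. The members were taken by their labels, as every library titled H3K4me3, and no measured value was used to choose them. The cells were ventricular-like cardiomyocytes differentiated with a commercial kit from H9, an established human embryonic stem cell line, and collected at day 15. Both groups shared the same line, differentiation protocol and day, and differed in ZNF436 knockdown against its control. The sources used here do not say how the knockdown was made, or whether replicates came from separate differentiations. The p-values below therefore set the group difference against the variation between these libraries only, and that variation may be technical. The assay was CUT&Tag, where the transposase Tn5 is brought by an antibody to nucleosomes with the mark and inserts sequencing adapters into the DNA there. Reads were counted over 153244 genomic regions shared by every library (hg19), and 26773 of these carried enough H3K4me3 reads to be tested.

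H3K4me3 is placed on nucleosomes at the starts of genes by the SET1 and MLL complexes, parts of which bind unmethylated CG dinucleotides, and the mark is found mainly at CG-rich promoters of genes that are active or poised. In cardiomyocytes it marks the starts of sarcomere, calcium-handling and cardiac transcription factor genes. ZNF436 is a C2H2 zinc finger protein with a KRAB domain, a domain that can recruit the co-repressor TRIM28 and, through it, H3K9 methylation.

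The promoters below belong to genes whose start region changed, and are shown for their CG content. ZNF436 is the knocked-down gene, RSPO3 and THEMIS2 were among the regions with the clearest gain, CKMT2 is a muscle gene that gained the mark, and FRZB and DPPA4 lost it. Each sequence is the RefSeq window (GRCh38.p14) from 250 bases before to 50 bases after a start, 300 bases in all, with every CG in capitals.
ZNF436: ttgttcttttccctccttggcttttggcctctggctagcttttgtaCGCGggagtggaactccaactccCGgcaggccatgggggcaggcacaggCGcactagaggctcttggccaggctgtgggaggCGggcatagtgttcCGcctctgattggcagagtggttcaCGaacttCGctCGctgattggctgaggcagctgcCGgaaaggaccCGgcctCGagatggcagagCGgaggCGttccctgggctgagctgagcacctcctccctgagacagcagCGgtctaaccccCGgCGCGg
RSPO3: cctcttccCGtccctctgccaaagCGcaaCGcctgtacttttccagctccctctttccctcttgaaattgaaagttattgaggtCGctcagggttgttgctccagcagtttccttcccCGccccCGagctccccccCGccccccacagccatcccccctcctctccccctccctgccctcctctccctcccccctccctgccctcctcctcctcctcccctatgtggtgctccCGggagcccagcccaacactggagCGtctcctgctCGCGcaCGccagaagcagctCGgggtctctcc
THEMIS2: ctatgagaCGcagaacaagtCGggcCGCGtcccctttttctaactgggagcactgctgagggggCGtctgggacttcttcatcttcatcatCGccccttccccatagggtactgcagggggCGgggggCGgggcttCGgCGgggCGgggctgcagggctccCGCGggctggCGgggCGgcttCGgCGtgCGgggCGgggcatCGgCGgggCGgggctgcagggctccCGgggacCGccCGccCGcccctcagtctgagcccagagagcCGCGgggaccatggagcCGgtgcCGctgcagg
CKMT2: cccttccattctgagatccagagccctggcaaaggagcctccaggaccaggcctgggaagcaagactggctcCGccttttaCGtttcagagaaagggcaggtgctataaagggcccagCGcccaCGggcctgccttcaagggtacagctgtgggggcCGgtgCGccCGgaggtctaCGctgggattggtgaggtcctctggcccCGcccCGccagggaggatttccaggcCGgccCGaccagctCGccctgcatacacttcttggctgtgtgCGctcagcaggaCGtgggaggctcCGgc
FRZB: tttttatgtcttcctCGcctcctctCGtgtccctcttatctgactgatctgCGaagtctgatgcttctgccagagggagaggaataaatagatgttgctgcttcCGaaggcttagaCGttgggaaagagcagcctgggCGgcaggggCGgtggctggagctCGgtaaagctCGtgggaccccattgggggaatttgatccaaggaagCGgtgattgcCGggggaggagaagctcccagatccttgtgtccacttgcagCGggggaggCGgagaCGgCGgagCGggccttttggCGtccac
DPPA4: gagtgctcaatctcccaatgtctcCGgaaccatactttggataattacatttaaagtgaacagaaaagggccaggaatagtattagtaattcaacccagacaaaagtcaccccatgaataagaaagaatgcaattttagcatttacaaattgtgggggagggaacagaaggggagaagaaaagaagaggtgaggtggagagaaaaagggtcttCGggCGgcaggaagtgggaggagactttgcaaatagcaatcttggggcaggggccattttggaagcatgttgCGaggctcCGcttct
These windows lie at chr1:23368286-23368585, minus strand for ZNF436, chr6:127118421-127118720, plus strand for RSPO3, chr1:27872294-27872593, plus strand for THEMIS2, chr5:81233072-81233371, plus strand for CKMT2, chr2:182866588-182866887, minus strand for FRZB and chr3:109337497-109337796, minus strand for DPPA4. The THEMIS2 window held 30 CGs and the DPPA4 window 5, against a median of 14 over all 35116 promoter windows of that table. The windows of ZNF436, FRZB, CKMT2 and RSPO3 held 18, 17, 16 and 13. The table's other ZNF436 window, at a start farther upstream, held 4. The letters TATAAA, searched on both strands, were in the CKMT2 window and in 11.5% of all windows, and were in none of the other windows printed here. Windows were matched for 54 of the 74 genes whose start gained the mark and for 25 of the 36 whose start lost it. Both shares are under 80%, so a comparison of CG content between gained and lost promoters is void.

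The libraries held between 11023905 and 13933927 counts in the regions. On the first principal component of the strongest regions, which carried 46.4% of the variance, the 3 knockdown libraries lay together between 2.0 and 5.17. The controls were spread more widely, with control replicate 2 at -10.3, control replicate 1 at -4.04 and control replicate 3 at 3.37, inside the range of the knockdown libraries. As a check of the labelled cell type, the starts of 41 of the 43 heart genes on the lists used here carried a counted region and 39 had enough counts to be tested. MYL2, the ventricular myosin light chain, did not, with at most 0.344 CPM (the read count scaled to library size with edgeR's TMM factors) at its start. The summed H3K4me3 CPM over the tested heart gene starts was 3841, 3287 and 5257 in the controls and 5080, 4483 and 4737 in the knockdown libraries. Control replicate 3 was therefore the highest of all 6 and control replicate 2 the lowest. Counts from a mixed culture cannot tell apart fewer cells of a type from less mark per cell.

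Across the genome, H3K4me3 was called as different between knockdown and control at a small set of regions. Of the 26773 regions tested, 150, or 0.56%, were called by edgeR's quasi-likelihood test with Benjamini-Hochberg adjustment (adjusted p under 0.05). The mark was higher in the knockdown at 100 regions (0.374%) and lower at 50 (0.187%). At all 150 the 3 knockdown libraries lay on one side of the 3 controls, whereas 16.2% of all tested regions showed such a separation. On the log2 scale, the median absolute change was 0.95 at gained and at lost regions alike, and 0.17 over all tested regions. The test that chose the 150 used this same difference in the same libraries, so neither value is separate support for the calls. By position, 73 of the gained regions lay within 2 kb of the start of a gene that could be named, 13 lay inside a gene and 14 were given no gene. Of the lost regions 36 lay at a start, 9 inside a gene and 5 at none.

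**Figure D1:**
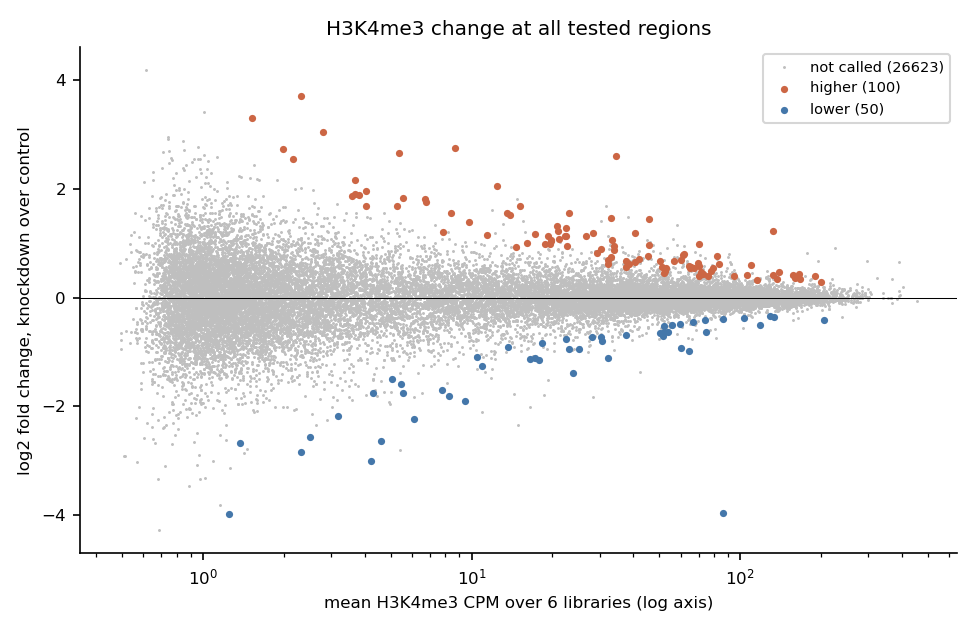
Mean H3K4me3 CPM over the 6 libraries (x, log axis) against the log2 fold change of knockdown over control (y) for each tested region. The 100 higher regions (orange) and the 50 lower ones (blue) stand at the edges of the cloud of regions that were not called, and the isolated blue point at a high level, near -4, is ZNF436.

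These counts depended on single libraries. Without control replicate 3, the control that lay among the knockdown libraries, 515 regions were higher and 290 lower (2.68% of those tested), while the fit lacking knockdown replicate 3 called 20 and 7. Leaving out each of the other libraries gave 28 to 137 higher and 10 to 103 lower. The call survived all 6 of these fits at 18 of the 100 gained and 6 of the 50 lost regions. Control replicate 3 exceeded both other controls at 60 of the 100 gained regions and was below both at 35 of the 50 lost ones, so that at those regions it lay nearest to the knockdown libraries. Over all tested regions it was above at 9481 and below at 9153.

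The targeted gene came first among the losses. The region over ZNF436 (chr1:23686304-23698054, hg19), which spans the whole gene, held 153, 173 and 161 CPM in the controls and 11.6, 10.1 and 9.59 CPM in the knockdown libraries. All 3 knockdown libraries were far below every control and close to each other. The fitted change was -3.96 on the log2 scale (SE 0.10, n = 3 per group; edgeR adjusted p = 1.41e-14), and it was between -4.04 and -3.91 whichever library was left out. H3K27ac, the mark of active promoters and enhancers, went the same way over that region, from 133, 97.6 and 113 CPM to 31.3, 31.1 and 20.04 CPM (log2 fold change -2.06, edgeR adjusted p = 0.00631).

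The gain with the smallest p was at RSPO3, which encodes R-spondin 3, a secreted protein that strengthens Wnt signalling. Its start region (chr6:127437365-127444343) held 74.3, 81.4 and 81.3 CPM in the controls and 183, 170 and 202 CPM in the knockdown libraries. The groups were far apart and each was tight, for a log2 fold change of 1.23 (SE 0.07, n = 3 per group; edgeR adjusted p = 4.67e-08). H3K27ac over the same region went from 11.0, 11.0 and 25.7 CPM to 74.8, 80.7 and 98.6 CPM, a log2 fold change of 2.41 (edgeR adjusted p = 0.00957). RSPO3 was the only gained region at which H3K27ac also passed its own genome-wide adjusted test, and a further small region inside the gene gained H3K4me3 as well (log2 fold change 2.73, SE 0.49).

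The next gained start was that of TGFBR3L, which encodes a membrane protein related to betaglycan, the TGF-beta co-receptor. Its region (chr19:7980530-7983265) held 26.9, 19.9 and 26.99 CPM in the controls and 67.5, 70.3 and 63.6 CPM in the knockdown libraries, a log2 fold change of 1.45 (SE 0.12; edgeR adjusted p = 7.47e-06). KISS1R, the kisspeptin receptor, held 29.5, 20.1 and 25.02 CPM against 63.3, 55.3 and 50.6 CPM (log2 fold change 1.18, SE 0.14). Both genes had groups that did not overlap. H3K27ac at TGFBR3L was 12.1, 12.1 and 5.51 CPM in the controls and 24.8, 24.2 and 24.7 CPM in the knockdown libraries, and at KISS1R 13.4, 11.7 and 16.5 against 21.4, 11.0 and 9.55 CPM, with overlapping groups. Neither passed the adjusted H3K27ac test, and the difference between the regions was not tested.

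THEMIS2, a signalling scaffold of immune cells, held 14.1, 11.5 and 9.28 CPM in the controls and 32.0, 34.6 and 36.6 CPM in the knockdown libraries, the largest fold among the gained starts of the first 15 (log2 fold change 1.57, SE 0.17; edgeR adjusted p = 0.000260). RHOF, a small GTPase that shapes filopodia, held 53.0, 39.0 and 50.2 CPM against 90.3, 88.0 and 101 CPM (log2 fold change 0.98, SE 0.11). EBF2, a transcription factor known from brown fat and neurons, held 16.6, 14.7 and 20.5 CPM against 38.5, 41.5 and 38.3 CPM. Its log2 fold change was 1.19 (SE 0.15; edgeR adjusted p = 0.000731). ABTB1, NICOL1 and TMEM200B had smaller gains, with log2 fold changes of 0.78, 0.59 and 0.44, each past the same test. CELF5, an RNA-binding protein gene of the nervous system, gained the mark at a region inside the gene (log2 fold change 1.14, SE 0.15).

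ALPK2, an alpha kinase gene expressed in the heart, gained the mark at a region inside the gene (chr18:56216374-56219317), which held 1.51, 1.17 and 1.72 CPM in the controls and 11.9, 6.93 and 9.17 CPM in the knockdown libraries (log2 fold change 2.66, SE 0.34; edgeR adjusted p = 0.000885). JPH3 belongs to the junctophilins, which tie the cell membrane to the internal calcium store, and is the family member known mainly from brain. It held 42.9, 43.4 and 44.2 CPM against 74.4, 63.6 and 70.7 CPM (log2 fold change 0.68, SE 0.09). The remaining gained regions of the first 15 were given no gene. The region at chr18:44789051-44790857 held 1.34, 2.19 and 3.18 CPM in the controls and 12.7, 14.3 and 18.3 CPM in the knockdown libraries, a log2 fold change of 2.75 (SE 0.30). Those at chr1:2474371-2479975 and chr16:88700121-88702018 had log2 fold changes of 1.47 and 1.68. All 15 were called whichever library was left out.

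**Figure D2:**
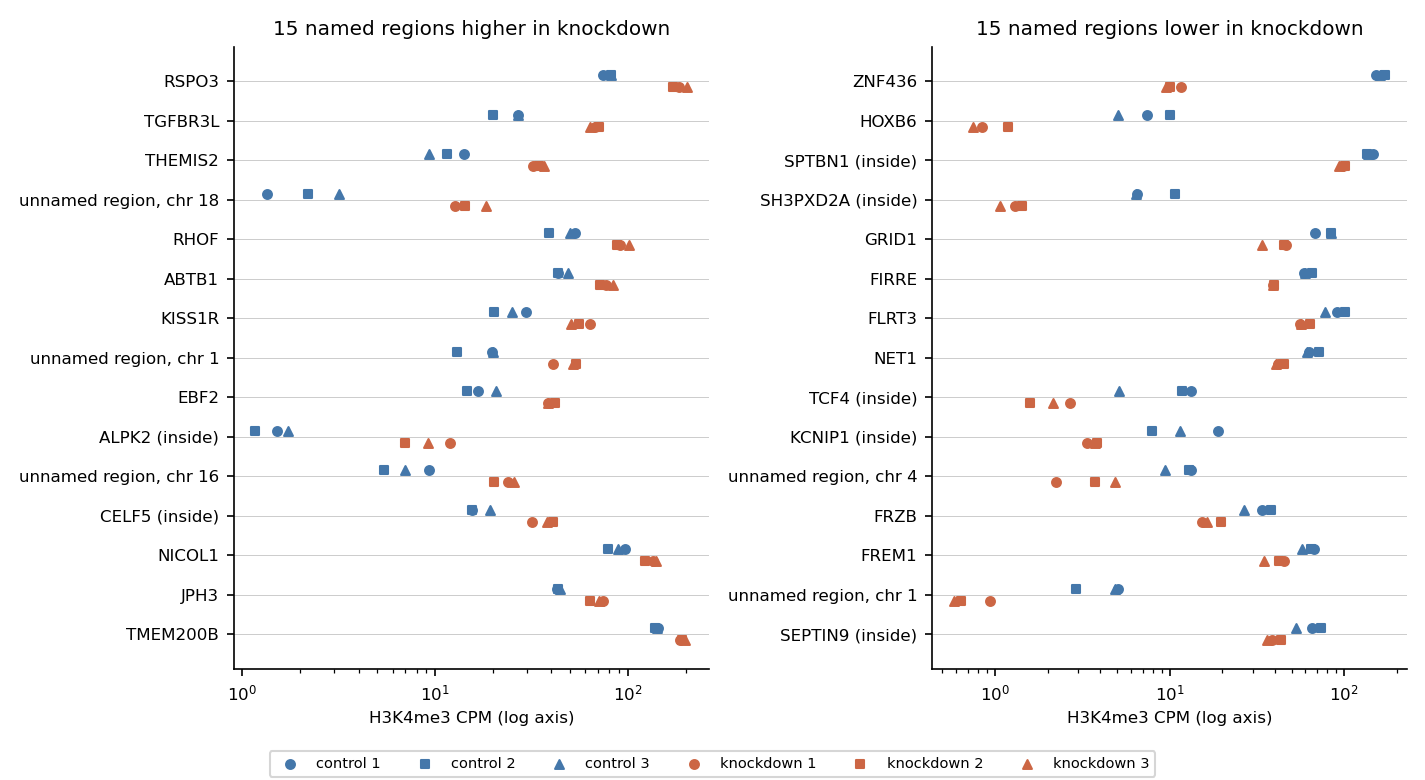
H3K4me3 CPM (x, log axis) in each library for the 15 gained (left) and 15 lost (right) regions with the smallest p after neighbouring regions were merged, with controls in blue, knockdown in orange and the symbol giving the replicate. In every row the 3 knockdown points lie on one side of the 3 control points, which was a condition for being shown. ZNF436 shows the drop from above 150 to about 10 CPM.

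Further called genes, chosen after their values were seen, included genes of muscle and of growth factor signalling. KCNIP2, the subunit of the channel that carries the transient outward potassium current of ventricular muscle, held 6.72, 7.44 and 15.3 CPM in the controls and 52.8, 56.3 and 68.5 CPM in the knockdown libraries (log2 fold change 2.60, SE 0.32; edgeR adjusted p = 0.0287). Its call was lost in 4 of the 6 fits that left out a library. CKMT2, the muscle mitochondrial creatine kinase whose promoter with TATAAA is printed above, held 8.65, 12.5 and 16.2 CPM against 36.1, 27.96 and 24.0 CPM (log2 fold change 1.23, SE 0.22). ABRA, an actin-binding protein of striated muscle, held 0, 0.438 and 0.516 CPM in the controls and 6.35, 3.42 and 3.14 CPM in the knockdown libraries. PYGM, the muscle glycogen phosphorylase gene, CMYA5, a cardiomyopathy-associated Z-disc protein gene marked inside the gene, NMRK2, a muscle NAD+ synthesis enzyme gene, and SLC4A3, a cardiac anion exchanger gene, rose by log2 fold changes of 1.00, 1.84, 2.56 and 0.61. Control replicate 3, the highest library in the summed heart gene signal, was also the highest control at KCNIP2, CKMT2 and ABRA. At these genes it lay below every knockdown library, as every control did at every called gain, so that position carries no separate information. The lowest control differed between these genes and that signal. The part of that signal in these calls was not tested.

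Among ligands, FGF8, a fibroblast growth factor of the embryonic heart field, held 10.3, 11.7 and 17.0 CPM in the controls and 31.3, 27.4 and 36.6 CPM in the knockdown libraries (log2 fold change 1.29, SE 0.19; edgeR adjusted p = 0.00321). FGF8 and KCNIP2 are neighbouring loci, and whether their gains are separate was not tested. FGF10, also a heart field factor, gained the mark at a region inside the gene (log2 fold change 1.96, SE 0.38). BMP7, WNT11, TGFB1 and TGFB2 had smaller gains at strongly marked starts, with log2 fold changes of 0.42, 0.39, 0.34 and 0.43. WNT11, a Wnt ligand that acts without beta-catenin in early cardiac differentiation, held 172, 145 and 176 CPM against 217, 206 and 223 CPM. Genes for transcriptional regulators of other lineages also gained the mark, among them GATA2 and LMO2, which act in blood formation, with log2 fold changes of 0.59 and 0.69. RUNX1, the only tested gene of the blood list, went the other way (-0.35) and was not called. CDKN1A, the cell cycle inhibitor p21, rose by 0.41.

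Among the losses after ZNF436, HOXB6, a homeobox gene of trunk identity, had the smallest p. Its region (chr17:46679187-46680541) held 7.39, 10.1 and 5.07 CPM in the controls and 0.840, 1.19 and 0.744 CPM in the knockdown libraries, so every knockdown library was below every control (log2 fold change -3.00, SE 0.39; edgeR adjusted p = 0.0012). A second region inside HOXB6 also fell (log2 fold change -2.18, SE 0.46). Over the HOXB cluster, whose bounds are approximate, 16 regions were tested, and 13 had a negative and 3 a positive log2 fold change, with a median of -1.18. Only the 2 HOXB6 regions passed the test. All 4 tested regions of HOXC had negative values (median -0.78). HOXA had 5 positive and 3 negative values and HOXD 1 of each. In these 3 clusters edgeR called 0 regions, while 1 region of HOXA, 2 of HOXC and 0 of HOXD passed an unadjusted p of 0.05, as did 10 of the 16 of HOXB and 10.2% of all tested regions. The summed CPM of the HOXB regions was 166.9, 194.5 and 181.4 in the controls and 166.7, 149.3 and 130.9 in the knockdown libraries, so every knockdown total was below every control total, by little for replicate 1 of each group.

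SPTBN1, the beta-spectrin of the membrane skeleton, lost the mark at a region inside the gene (chr2:54784590-54788847), from 147, 135 and 137 CPM to 99.1, 101 and 93.5 CPM (log2 fold change -0.51, SE 0.07; edgeR adjusted p = 0.00123). SH3PXD2A, which encodes the podosome scaffold TKS5, held 6.55, 10.7 and 6.45 CPM at a region inside the gene in the controls and 1.31, 1.43 and 1.07 CPM in the knockdown libraries (log2 fold change -2.63, SE 0.36). FLRT3, an adhesion receptor that also binds FGF receptors, held 91.4, 101 and 78.0 CPM against 55.8, 63.5 and 56.4 CPM, with a log2 fold change of -0.62 (SE 0.10). NET1, a guanine nucleotide exchange factor gene, FREM1, a basement membrane protein gene, and a region inside SEPTIN9, a filament-forming GTPase gene, fell by 0.62, 0.63 and 0.70 on the log2 scale. GRID1, a glutamate receptor family gene, fell by 0.92, from 68.0, 84.4 and 84.7 CPM to 46.6, 45.2 and 33.9 CPM. FIRRE, the X-linked long non-coding RNA gene, had tight groups of 59.1, 65.9 and 59.5 CPM in the controls and 39.0, 39.4 and 39.0 CPM in the knockdown libraries (log2 fold change -0.65, SE 0.10).

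FRZB, a secreted antagonist of Wnt ligands whose promoter is printed above, held 34.0, 38.4 and 26.6 CPM at its start (chr2:183729824-183732453) in the controls and 15.4, 19.6 and 16.4 CPM in the knockdown libraries. Its log2 fold change was -0.95 (SE 0.17; edgeR adjusted p = 0.0124). MAB21L2, a developmental gene of eye, body wall and heart, lay within a group of 3 neighbouring regions that all lost the mark. The region that represents the group, chr4:151506515-151507808, held 13.3, 13.0 and 9.37 CPM against 2.24, 3.74 and 4.88 CPM (log2 fold change -1.71, SE 0.30). The larger neighbour at the MAB21L2 start (chr4:151499859-151506019) held 88.5, 95.7 and 71.9 CPM against 51.8, 35.1 and 43.2 CPM, a log2 fold change of -0.98 (SE 0.14). H3K27ac at that start went from 90.0, 58.4 and 30.1 CPM to 14.3, 9.09 and 10.5 CPM, a log2 fold change of -2.39 (edgeR adjusted p = 0.0367). Regions inside TCF4, a basic helix-loop-helix factor gene, and KCNIP1, a neuronal relative of KCNIP2, fell by 2.23 and 1.81 on the log2 scale. A region given no gene, chr1:81773468-81774349, fell by 2.57. Of the 15 named losses, the calls at ZNF436, HOXB6, SPTBN1, SH3PXD2A, GRID1 and FIRRE held whichever library was left out, and each of the other 9 was lost in at least 1 such fit.

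The heart gene lists were compared because the series title speaks of cell-type identity. Of 43 heart genes, 39 had a tested start region, and 0 passed the edgeR test in either direction, against 0.56% of all regions (2 with DESeq2, 0 with limma-voom). At an unadjusted p under 0.05, 5 of the 39 passed, against 10.2% of all regions. Their log2 fold changes were positive at 29 and negative at 10, with a median of 0.31, while the median over all tested regions was -0.01. Sarcomere genes had 12 positive and 2 negative values (median 0.43), calcium-handling and ion channel genes 8 and 3 (median 0.17), and cardiac transcription factor genes 8 and 5 (median 0.07). The most negative values on the heart lists were at the transcription factor genes IRX4 (-0.75) and TBX5 (-0.67), both with overlapping groups. H3K27ac there had log2 fold changes of -1.23 and -1.29, neither past the adjusted edgeR test. The H3K4me3 values of the 39 include many at which the groups overlap. In 6 of the 39 the groups did not, close to the 16.2% of all regions.

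**Figure D3:**
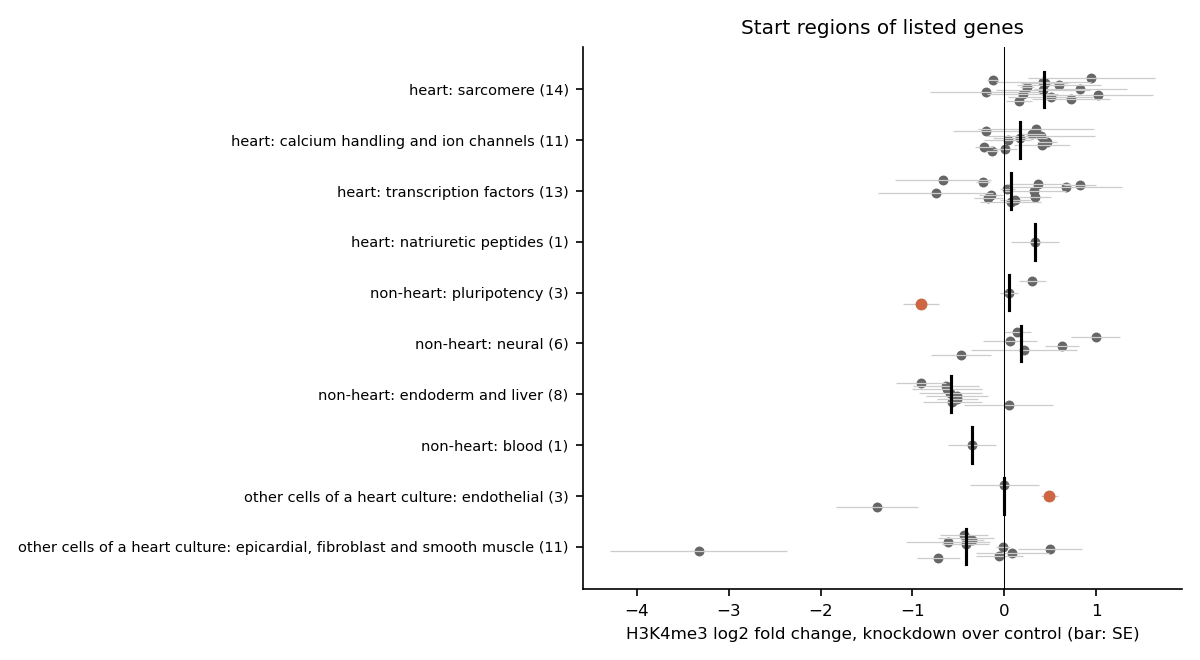
H3K4me3 log2 fold change of knockdown over control (x, with SE as grey bars) at the start region of each tested gene, by list (y, number tested in brackets), with the list median as a black bar and called genes in orange. DPPA4 and KDR are the only called points, and the sarcomere genes lie mostly to the right of 0 and the endoderm and liver genes mostly to the left, with SEs that often reach 0.

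The spread between controls was wide at single heart genes. MYH6, the alpha myosin heavy chain, held 26.0, 11.9 and 54.1 CPM in the controls and 72.0, 55.8 and 58.0 CPM in the knockdown libraries, so control replicate 3 lay just under the lowest knockdown library (log2 fold change 1.02, SE 0.59; edgeR adjusted p = 0.678). NKX2-5, a founding cardiac transcription factor, held 196, 84.0 and 408 CPM against 389, 332 and 368 CPM, with control replicate 3 the highest of all 6 (log2 fold change 0.67, SE 0.62; edgeR adjusted p = 0.809). The heart genes with the smallest p were KCNH2, a potassium channel gene of repolarisation, with a log2 fold change of 0.46 (edgeR adjusted p = 0.109), TBX2, a repressor of chamber genes, with 0.83 (0.178), TNNC1, cardiac troponin C, with 0.25 (0.179), and TBX3, a conduction system factor, with -0.24 (0.207). TBX2 held 129, 98.0 and 156 CPM against 218, 218 and 242 CPM at its start, and a neighbouring region inside the gene did pass (log2 fold change 0.93, SE 0.19; edgeR adjusted p = 0.0296). The smallest p among the other sarcomere genes belonged to TPM1 (log2 fold change -0.13) and TNNI3 (0.44), the third transcription factor gene was HAND2 (0.34), and the other channel or gap junction genes were GJA1 (-0.22) and RYR2 (0.31). Of the natriuretic peptide genes, NPPB had a value of 0.34 and NPPA no counted region at its start.

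Without control replicate 3, 10 heart gene starts passed the edgeR test, against 2.68% of all regions in that fit. Of these, 9 were higher, namely ACTN2, MYL7, TNNC1, PLN, HCN4, KCNH2, RYR2, HAND2 and TBX2, and TBX3 was lower. The log2 fold changes were 1.23 at ACTN2, which encodes Z-disc alpha-actinin, 1.37 at MYL7, the atrial myosin light chain, and 1.21 at PLN, phospholamban, the inhibitor of the calcium pump. Without control replicate 2 only TBX2 passed. The summed sarcomere CPM was 761, 588 and 1128 in the controls and 1140, 971 and 1026 in the knockdown libraries. Control replicate 3 thus lay with the knockdown libraries on the heart genes, and the part of this spread in the heart result was not tested.

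**Figure D4:**
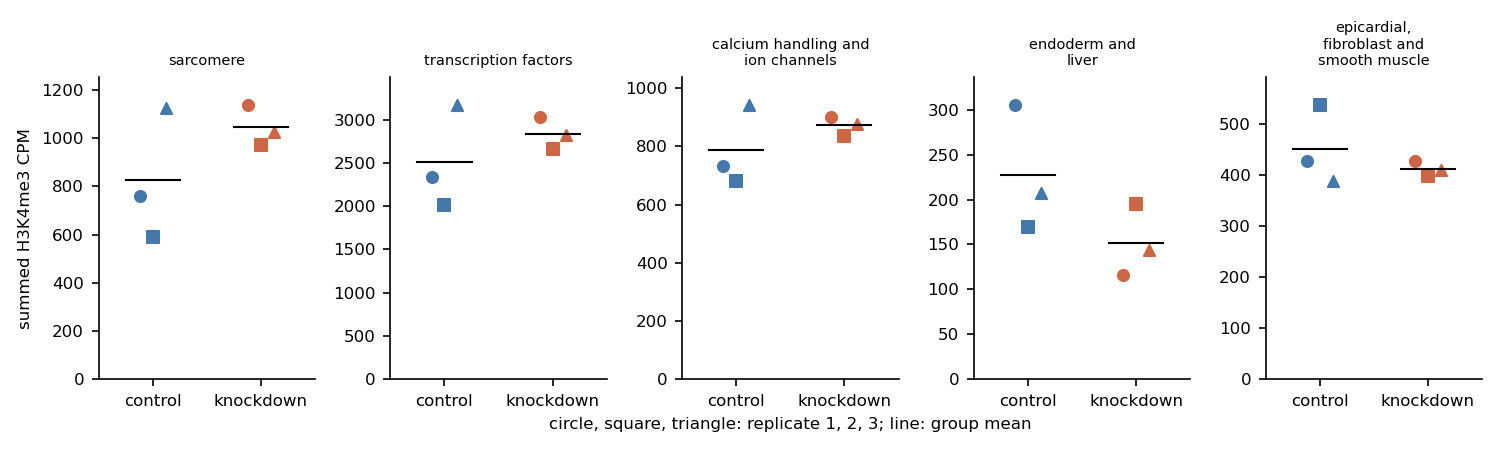
Summed H3K4me3 CPM (y, from 0) over the tested start regions of 5 gene lists in each control (blue) and knockdown (orange) library, with group means as lines and the symbol giving the replicate. On the 3 heart lists at the left control replicate 3 (triangle) lies at or above most knockdown libraries while control replicates 1 and 2 lie below all of them.

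Among non-heart genes, 18 of 34 had a tested start, and 1 passed, against 0.56% of all regions. DPPA4, a chromatin factor of pluripotent cells, held 17.0, 20.8 and 15.6 CPM in the controls and 8.96, 10.5 and 9.01 CPM in the knockdown libraries, a log2 fold change of -0.91 (SE 0.20; edgeR adjusted p = 0.0455). Its call was kept in only 1 of the 6 fits that left out a library. The other tested pluripotency genes, SOX2 and LIN28A, had values of 0.31 and 0.05, while POU5F1 and NANOG, the core pluripotency factors, had no counted region at their starts. Of the 8 tested endoderm and liver genes, 7 had negative values (median -0.58), and 0 passed the adjusted edgeR test and 2 an unadjusted p under 0.05, which 10.2% of all tested regions passed. The lowest p were at SOX17, a definitive endoderm factor, with -0.91 (edgeR adjusted p = 0.167), CDX2, an intestinal factor, with -0.51, and APOA1, an apolipoprotein gene, with -0.56. Their summed CPM was 306, 169 and 207 in the controls and 116, 195 and 144 in the knockdown libraries, groups that overlap, with control replicate 1 the highest. Neural genes had 5 positive and 1 negative value, with 0 called by edgeR, 2 of 6 at an unadjusted p under 0.05 (10.2% of all regions) and 2 by DESeq2. Of these, PAX6, a factor of eye and forebrain, held 6.30, 5.11 and 5.93 CPM against 14.7, 7.96 and 11.9 CPM (log2 fold change 1.00, edgeR adjusted p = 0.116). NEUROG2, a neurogenic factor, had 0.63 (edgeR adjusted p = 0.162). RUNX1 was the only tested blood gene (-0.35), and no skeletal muscle gene had enough counts to be tested.

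Markers of the other cells that a heart culture can hold were tested at 14 of 18 genes. KDR, the VEGF receptor of endothelium and early mesoderm, was higher, with 56.4, 62.3 and 75.0 CPM in the controls and 93.1, 89.3 and 89.9 CPM in the knockdown libraries (log2 fold change 0.49, SE 0.09; edgeR adjusted p = 0.0201). That call was lost in 4 of the 6 fits that left out a library. Of the other endothelial genes tested, ERG had a value of -1.39 (edgeR adjusted p = 0.264) and SOX18 of 0.0014, and CDH5 and TEK had no counted region at their starts. FLT1, another VEGF receptor gene outside the lists, was lower, with 93.5, 105 and 97.0 CPM against 78.9, 73.8 and 71.9 CPM (log2 fold change -0.39, SE 0.08). Epicardial, fibroblast and smooth muscle genes had 9 negative and 2 positive values (median -0.42), with 0 called by edgeR and 3 of 11 at an unadjusted p under 0.05, against 10.2% of all regions. Those with the smallest p were DCN, ACTA2 and TBX18, of which ACTA2, smooth muscle actin, held 16.8, 22.9 and 12.2 CPM against 8.40, 11.5 and 11.7 CPM (edgeR adjusted p = 0.226) and TBX18, an epicardial factor, 32.2, 31.8 and 37.0 against 26.0, 26.4 and 26.9 CPM (edgeR adjusted p = 0.317). DCN held at most 2.48 CPM in any library. The summed CPM of these 11 starts was 428, 537 and 389 in the controls and 428, 397 and 410 in the knockdown libraries, with overlapping groups.

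The other marks were read at the regions where H3K4me3 changed, each with its own fit over its own tested regions. H3K27ac was tested at 85 of the 100 gained regions and its log2 fold change was positive at 72 of them, against 47.2% of all H3K27ac regions. At 32 of the 85 it passed an unadjusted p of 0.05 in the gained direction, against 5.91% of all H3K27ac regions, and at 0 in the other. Of the lost regions 43 were tested, 39 had a negative H3K27ac value, and 13 passed the unadjusted threshold downwards, against 5.35% of all, and 0 upwards. These shares are over all 61484 tested H3K27ac regions, most of which were not tested for H3K4me3. No such share was computed over the 23051 regions tested for both marks, whose median H3K27ac log2 fold change was 0.0054. By the adjusted test, which called 0.0114% of all H3K27ac regions, only RSPO3, ZNF436 and MAB21L2 passed. CKMT2 came close, with 27.6, 34.5 and 41.1 H3K27ac CPM in the controls and 97.9, 70.5 and 99.2 CPM in the knockdown libraries (log2 fold change 1.38, edgeR adjusted p = 0.0591). The H3K27ac libraries were separate from the H3K4me3 ones, and the labels do not say whether they came from the same cells. At NKX2-5 the controls ranked alike in both marks, with 444, 200 and 639 CPM of H3K27ac, while at HAND1 they did not. They ranked alike at most tested sarcomere genes, namely MYH6, MYH7, TNNT2, TNNI1, MYL3, MYL4, MYL7, ACTN2, TTN and MYBPC3. At TNNI3, TNNC1, ACTC1 and TPM1 they did not. Whether the marks share differences between cultures was not tested, so their agreement is not shown to be independent.

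**Figure D5:**
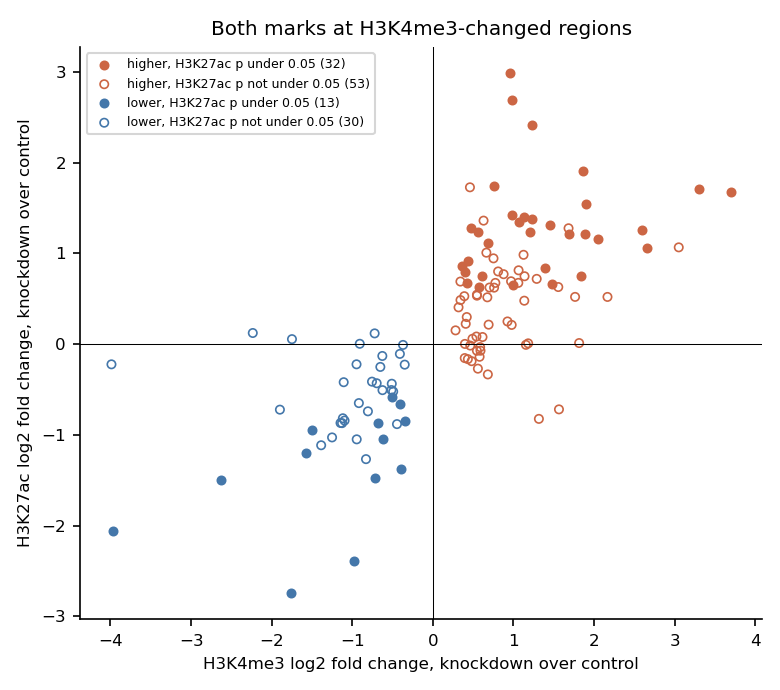
H3K4me3 log2 fold change (x) against H3K27ac log2 fold change (y), knockdown over control, at the regions with changed H3K4me3 that were tested for both marks. Filled points passed an unadjusted H3K27ac p of 0.05, and all 32 filled orange points lie above 0 and all 13 filled blue points below.

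H3K4me1, the mark of enhancers and of the flanks of promoters, was read in the same way. It was positive at 47 of 98 tested gained regions, against 47.8% of all H3K4me1 regions, and negative at 32 of 48 tested lost ones, and 0 regions passed edgeR's adjusted test. At an unadjusted p of 0.05 it passed upwards at 5 and downwards at 2 of the gained regions, and downwards at 5 and upwards at 1 of the lost ones. Over all 85815 tested H3K4me1 regions, of which 25098 were also tested for H3K4me3, 4.91% passed that threshold upwards and 5.58% downwards. H3K9me3, a mark of silenced chromatin, had enough counts to be tested at 39 gained and 12 lost regions. It was positive at 27 of the gained regions and negative at 4 of the lost ones, against 50.9% positive over all 30565 tested H3K9me3 regions. Most of those 30565 were not tested for H3K4me3, so that share is not a matched background. Its median log2 fold change was 0.32 at the gained and 0.21 at the lost regions, below the 0.37 over all 4080 regions tested for both marks, so neither set stood above that background. Tests of H3K9me3 at single changed regions are not reported here.

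Chromosome 19, which carries many KRAB zinc finger genes, held 15 of the changed regions, all of them gained, among 1716 tested there (0.874%, against 0.374% of all tested regions gained). Of these, 14 lay at or in a gene that could be named and none of those is a zinc finger gene. They included TGFBR3L, KISS1R, CELF5, NMRK2, TGFB1 and DBP, a circadian transcription factor gene with a log2 fold change of 0.55. The remaining region, chr19:53242847-53247655, rose from 1.85, 2.19 and 1.72 CPM to 4.39, 7.01 and 7.19 CPM. It was given no gene, so whether it lies at or near a zinc finger gene was not determined.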

How the data were processed

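H3K4me3 CUT&Tag libraries of control and ZNF436-knockdown cardiomyocytes (3 each, day 15) were analysed. The deposited files hold raw read counts per region on hg19, with no normalisation, over the same 153244 regions. Bowtie2 2.4.5, bedtools 2.30.0 and deepTools 3.5.4 are named in the submitters' processing notes. Between 62.3% and 65.9% of nonzero counts per library are even, so both mates of a pair may have been counted. Library totals were 11023905 to 13933927. Regions kept by filterByExpr were tested with edgeR 4.0.16 (R 4.3.3): TMM factors, robust quasi-likelihood fit, knockdown against control, Benjamini-Hochberg adjustment over all tested regions. The other marks were fitted alike. On simulated counts the script recovered the folds made, but false calls were a larger share of the calls than the threshold allows. Replicates differed by more than sampling noise and none were merged.

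Gene starts and ends on hg19 came from general knowledge, not from an annotation file, and were written after the changed regions had been seen. All 221 genes matched the RefSeq table (GRCh38.p14) for chromosome, and 198 of 198 neighbouring pairs for order; coordinates were not checked. Regions whose gene was not certain were left unnamed, so shares at named starts have no background. A region was assigned to a start within 2 kb. Named regions are the 15 gained and 15 lost with the smallest p and separate groups, regions within 10 kb merged, every changed region at a listed gene's start, ZNF436, and up to 3 genes per list with the smallest p. The comparisons, members and lists were chosen with earlier results of these data known. PECAM1 was not located. Alternatives were other normalisations, DESeq2 1.42.0, limma-voom (limma 3.58.1), other filters, halved counts, a replicate block and leaving out each library. Results at a few genes are not reported here.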

Additional observations from a re-analysis of the deposited data

How the results depend on the processing

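The ZNF436 loss kept its direction and call under every alternative run. Counts of regions higher and lower in the knockdown (100 and 50) were 271 and 185 with DESeq2, 107 and 33 with limma-voom, and 352 and 314 with no filter. Leaving out a library gave 20 to 515 higher and 7 to 290 lower. Heart gene starts called (0) were 2 with DESeq2, 3 with no filter, 2 with a replicate block and 0 to 10 when a library was left out. Non-heart gene starts called (1) were 3 with DESeq2, 0 with limma-voom, 5 with no filter, 0 with the replicate block and 0 to 2 when a library was left out. The cause of these moves was not tested, beyond the number of libraries or regions in each fit. The replicate block gave 121 higher and 56 lower. Same-numbered libraries had correlations of deviations of -0.11, 0.14 and -0.0043, and other-numbered ones lay between -0.20 and 0.19. With 3 libraries per group, these values cannot show whether the numbers mark a shared culture or day. RLE factors, library totals, halved counts and a stricter filter (30 reads in 3 libraries) kept both region counts within 1.5 times. No changed region reversed its direction in any of these fits. An alternative added after seeing the data left out each H3K27ac library. In the main fit, 45 changed regions passed the unadjusted H3K27ac threshold on the same side as H3K4me3. That count became 33 to 54, and 0 passed the threshold on the opposite side each time. Regions short of the threshold were counted on neither side. Depth limits the weak regions, where a call rests on few counts per library.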
